A study of Mus musculus with 8 samples.

Results

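TRAV14 family receptors were taken as all alpha chains whose V gene was called as a copy of TRAV14, a family that antibody studies call Vα2. The family held 201 alpha chain contigs in 200 cells, of 2298 cells with an alpha chain and 2986 cells with any T cell receptor (TCR) chain, and the 200 cells fell into 127 clonotypes. The cells were CD45+ cells sorted from the brains of male C57BL/6 mice (B6 in the labels), 2 months after traumatic brain injury (TBI) by controlled cortical impact, and all 4 groups were injured. Treatment was an antibody against CD49d, the α4 integrin by which lymphocytes enter inflamed tissue (aCD49d Ab), or its isotype control, repeated every 2 weeks. Age at injury was 13 to 15 weeks for the young mice and 80 to 82 weeks for the aged ones, which gave the groups YTBI_Isotype, YTBI_aCD49d, ATBI_Isotype and ATBI_aCD49d. Each group was 1 library made from a pool of 2 mice, so that no difference between groups had a replicate and none was tested. Intervals given in brackets are exact Clopper-Pearson 95% intervals for a share. For a difference they are Newcombe-type intervals, built from the Clopper-Pearson bounds of both shares. They cover counting error only, and cells of 1 clone are not independent draws.

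The alpha chain of a TCR is made by joining a TRAV segment to a TRAJ segment, and the bases at the join are trimmed and partly replaced by untemplated bases. The join and its surroundings form CDR3, the loop that lies over the peptide, while CDR1 and CDR2 are encoded by the V segment itself and mostly touch the MHC molecule. In B6 mice a stretch of the alpha locus is duplicated, so that TRAV14 exists as copies with no letter, with a D and with an N in their names. The Vα2 family is best known from the OT-I and OT-II transgenic mice, whose ovalbumin-specific receptors pair Vα2 with Vβ5 (TRBV12). The copy named DV8 can also be joined into a delta chain.

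The GRCm38 (mm10) genome holds 9 annotated TRAV14 copies, all on the plus strand of chromosome 14. From the end far from the TRAJ segments, they were Trav14d-1 (chr14:52855614-52856166), Trav14d-2 (chr14:52948568-52949169), Trav14d-3-dv8 (chr14:53078452-53079045), Trav14n-1 (chr14:53166626-53167178), Trav14n-2 (chr14:53259578-53260179), Trav14n-3 (chr14:53370077-53370575), Trav14-1 (chr14:53554022-53554558), Trav14-2 (chr14:53640701-53641225) and Trav14-3 (chr14:53763173-53763694). In each gene the V region lies in the last coding exon, after a separate leader exon. The germline loop sequences are shown because they are what distinguishes the copies at the loops that the V segment encodes. CDR1 has 18 bases and CDR2 has 21, read here from the genome, with capitals at the 4 CDR1 positions and 3 CDR2 positions at which the copies differ.
TRAV14D-1 CDR1: GacagCActtttAactac
TRAV14D-2 CDR1: GacagCActtttGactac
TRAV14D-3-DV8 CDR1: AacagTGcttttGactac
TRAV14D-1 CDR2: atacGtTcagtgtccGataaa
TRAV14-1 CDR2: atacTtTcagtgtccGataaa
TRAV14D-2 CDR2: atacGtCcagtgtccAataaa
The CDR1 followed the number in the name, so that copies numbered 1, 2 and 3 had these sequences in the order printed, in every cluster. CDR2 did not. TRAV14D-1, TRAV14N-1, TRAV14N-3 and TRAV14-3 shared the first CDR2, TRAV14-1 and TRAV14D-3-DV8 shared the second, and the 3 copies numbered 2 shared the last.

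The calls could be checked against the genome, because the deposited tables give the V region from the start of framework 1 to the end of framework 3. All 201 contigs matched their called copy without a difference over 267 bases. TRAV14D-1 and TRAV14N-1 had 0 differences between them over this stretch, as did TRAV14D-2 and TRAV14N-2, while any other pair of copies differed at 5 to 20 bases. TRAV14N-1 and TRAV14N-2 were never called. A TRAV14D-1 call therefore covers both TRAV14D-1 and TRAV14N-1, and a TRAV14D-2 call both TRAV14D-2 and TRAV14N-2, and neither pair can be told apart here.

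TRAV14 was found in 15 of 217 cells with an alpha chain in YTBI_Isotype (6.91%, 3.92 to 11.1) and in 36 of 452 in YTBI_aCD49d (7.96%, 5.64 to 10.9), and in 73 of 692 in ATBI_Isotype (10.5%, 8.36 to 13.1) and in 76 of 937 in ATBI_aCD49d (8.11%, 6.44 to 10.0). ATBI_Isotype had the highest share, and the intervals of all 4 libraries overlapped. The share in ATBI_Isotype was 2.44 percentage points above that in ATBI_aCD49d (-0.48 to 5.47), and the share in YTBI_Isotype was 1.05 points below that in YTBI_aCD49d (difference -1.05, interval -5.21 to 3.78). Under isotype the aged library was 3.64 points above the young one (-1.13 to 7.56), and under aCD49d Ab treatment 0.15 points above it (-3.19 to 3.17). Each of these 4 differences had an interval that held 0.

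Counted once per clonotype, TRAV14 held 12 of 193 clonotypes with an alpha chain in YTBI_Isotype (6.22%, 3.25 to 10.6) and 33 of 375 in YTBI_aCD49d (8.80%, 6.13 to 12.1), and 36 of 343 in ATBI_Isotype (10.5%, 7.46 to 14.2) and 46 of 466 in ATBI_aCD49d (9.87%, 7.32 to 12.9). The gap between the aged libraries was 0.62 points by clonotype (-3.70 to 5.15). ATBI_Isotype also had 1 large TRAV14 clone, described below, and without the largest TRAV14 clonotype of each library its share of cells was 7.33% and the aged difference 0.81 points. The aged minus young difference was then 2.17 points under isotype and turned to -0.61 points under aCD49d Ab treatment.

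The TRAV14 shares are set beside those of other multi-copy families. By cells TRAV14 spanned 6.91% to 10.5% over the libraries, while TRAV12 spanned 10.8% to 25.7%, TRAV9 7.37% to 22.8% and TRAV7 6.94% to 18.2%. TRAV6 spanned 6.50% to 15.5%, TRAV13 4.80% to 8.63% and TRAV4 4.62% to 7.83%, so that families with both wider and narrower spans than TRAV14 were present. By clonotypes the spans were 6.22% to 10.5% for TRAV14, 10.4% to 14% for TRAV12, 7.47% to 10.9% for TRAV9 and 10.7% to 15% for TRAV7. Over the 4 libraries together TRAV14 was in 8.70% of cells (7.58 to 9.93) and 9.22% of clonotypes (7.75 to 10.9), which made it the 5th of 19 TRAV families by cells, tied with TRAV16 at 200 cells, and the 4th by clonotypes. In YTBI_Isotype, YTBI_aCD49d, ATBI_Isotype and ATBI_aCD49d, TRAV14 ranked 7th, 7th, 3rd and 4th by cells. By clonotypes it ranked 9th, 5th, 3rd and 4th in the same order, with tied families given the same rank. No test was made of whether its spread differed from that of the other families.

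**Figure D1:**
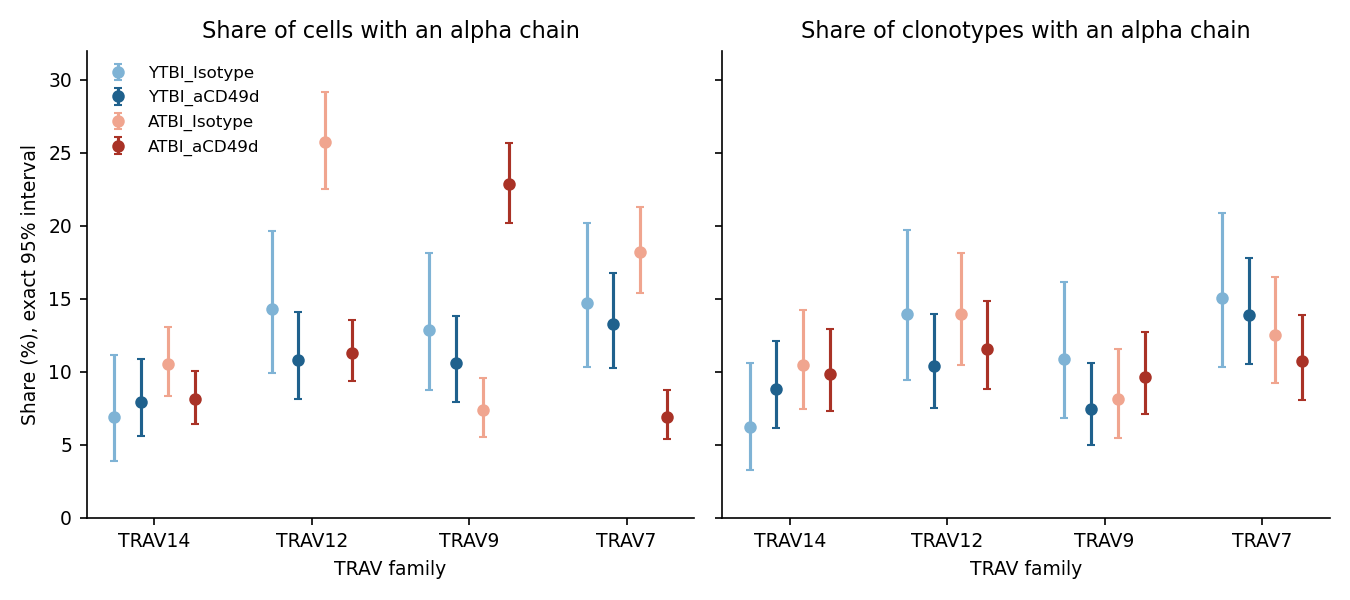
Share of cells with an alpha chain (left) and of clonotypes with an alpha chain (right), in %, that carried TRAV14, TRAV12, TRAV9 or TRAV7 in each of the 4 libraries. Points are shares and bars exact 95% intervals for counting error. TRAV14 lay between 6.91% and 10.5% of cells, while TRAV12 reached 25.7% in ATBI_Isotype and TRAV9 22.8% in ATBI_aCD49d.

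The called copies were used unequally, and the lead of TRAV14D-1 was larger by cells than by clonotypes. TRAV14D-1 was in 82 of the 200 TRAV14 cells (41.0%, 34.1 to 48.2) but in 32 of 127 clonotypes. By library it was in 3 of 15 TRAV14 cells in YTBI_Isotype and 5 of 36 in YTBI_aCD49d, and 37 of 73 in ATBI_Isotype and 37 of 76 in ATBI_aCD49d. Of the 37 cells in ATBI_Isotype, 24 were of 1 clone, and of those in ATBI_aCD49d, 16 were of another. In clonotypes, TRAV14D-1 had 3, 5, 10 and 14 in the same order of libraries.

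The other copies each held 8.0% to 12.0% of the TRAV14 cells. TRAV14N-3, the only N copy that could be called, was in 21 clonotypes and 21 cells, so that no cell of this copy belonged to a clone with a second TRAV14N-3 cell. TRAV14-2 was in 24 cells of 19 clonotypes, TRAV14-1 in 22 cells of 13, TRAV14-3 in 19 cells of 14, TRAV14D-2 in 17 cells of 17 and TRAV14D-3-DV8 in 16 cells of 12. All 17 TRAV14D-2 cells likewise came from 17 different clonotypes.

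Some copies were missing from single libraries. TRAV14N-3 and TRAV14-1 were in 0 of the 15 TRAV14 cells of YTBI_Isotype, which allows a share of up to 20%, and were in 8 and 5 of the 36 cells of YTBI_aCD49d. TRAV14D-3-DV8 was in 6 of the 15 cells of YTBI_Isotype, 4 of them in 1 clone, in 0 of the 36 cells of YTBI_aCD49d, which allows up to 8.33%, in 1 of 73 in ATBI_Isotype and in 9 of 76 in ATBI_aCD49d. Grouped by CDR1, the copies numbered 1 held 45 clonotypes, those numbered 2 held 36 and those numbered 3 held 47. The same groups held 104, 41 and 56 cells.

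**Figure D2:**
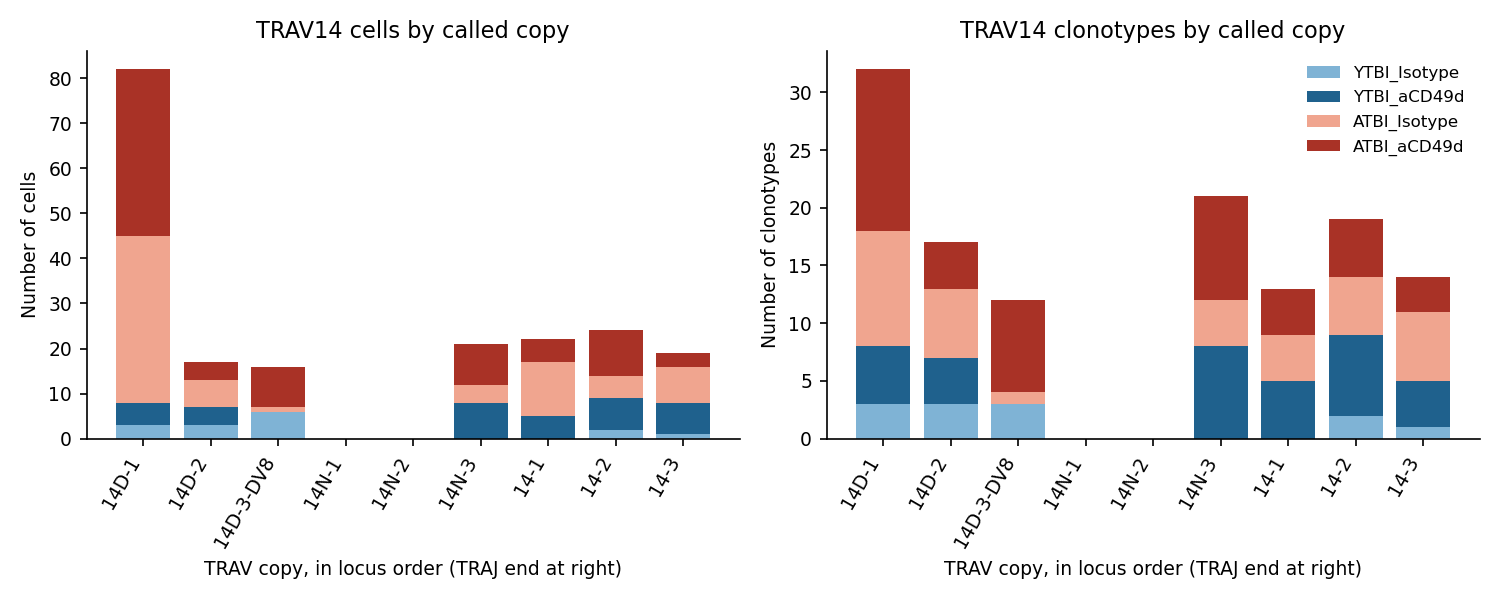
Number of TRAV14 cells (left) and TRAV14 clonotypes (right) by called copy, in the order of the locus, stacked by library. A cell or clonotype with chains of more than 1 copy counts under each. TRAV14D-1 stands out at 82 cells and less so at 32 clonotypes, and the bars of TRAV14N-1 and TRAV14N-2 are empty, and the V regions of these copies match those of TRAV14D-1 and TRAV14D-2.

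The TRAJ partner was read from distinct rearrangements (the same V, J and CDR3 bases in 1 library counted once, also across clonotypes), so that a large clone counts once. There were 127 of them, 12 in YTBI_Isotype and 33 in YTBI_aCD49d, and 36 in ATBI_Isotype and 46 in ATBI_aCD49d, and they used 35 TRAJ segments. TRAJ numbers run down along the locus, so that a segment numbered above 30 lies toward the TRAV side. Of the TRAV14 rearrangements, 55 (43.3%, 34.6 to 52.4) used such a segment, against 560 of 1241 (45.1%, 42.3 to 47.9) of the rearrangements of other TRAV families. The difference was -1.82 points (-11.0 to 7.68). By library the TRAV14 share was 41.7% in YTBI_Isotype and 48.5% in YTBI_aCD49d, and 44.4% in ATBI_Isotype and 39.1% in ATBI_aCD49d.

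Within TRAV14 the TRAJ partners differed by the position of the copy. Copies with no letter, 391 to 600.4 kb before the first TRAJ segment, used a TRAJ above 30 in 40 of 46 rearrangements (87.0%, 73.7 to 95.1). Copies with a D or an N, 784 to 1299 kb away, did so in 15 of 81 (18.5%, 10.8 to 28.7), a difference of 68.4 points (51.8 to 79.7). The distances were taken in GRCm38 from the end of each gene to the first annotated TRAJ segment, and the grouping by letter was chosen after the values were seen. The size of the difference depends on the TRAJ limit. With the limit at TRAJ40, 20 of 46 (43.5%) and 5 of 81 (6.17%) lay above it, a difference of 37.3 points (20.9 to 53.3).

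By library, the copies with no letter are given first and those with a D or an N after them. In YTBI_Isotype it was 3 of 3 rearrangements against 2 of 9, in YTBI_aCD49d 13 of 16 against 3 of 17, in ATBI_Isotype 14 of 15 against 2 of 21 and in ATBI_aCD49d 10 of 12 against 8 of 34. The difference was 77.8 points (-2.44 to 97.2), 63.6 points (26.3 to 83.8), 83.8 points (51.0 to 94.4) and 59.8 points (23.5 to 79.2) in the same order. The interval held 0 only in YTBI_Isotype, the library with 12 rearrangements. With the limit at TRAJ40 the differences were 55.6, 31.2, 37.1 and 44.1 points, and again only the interval of YTBI_Isotype held 0. Of the N copies only TRAV14N-3 could be set apart, because TRAV14D-1 and TRAV14D-2 calls also cover TRAV14N-1 and TRAV14N-2. In ATBI_aCD49d TRAV14N-3 used a TRAJ above 30 in 5 of 9 rearrangements (55.6%, 21.2 to 86.3) and the calls named D in 3 of 25 (12%, 2.55 to 31.2). In YTBI_aCD49d the counts were 1 of 8 for TRAV14N-3 and 2 of 9 for the calls named D, and in ATBI_Isotype 0 of 4 and 2 of 17.

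The median TRAJ number was higher for the copies with no letter, nearest the TRAJ segments, than for the far ones. The place of TRAV14D-1 and TRAV14D-2 calls in the locus is not known, because they also cover TRAV14N-1 (987.8 kb away) and TRAV14N-2 (894.8 kb). Both lie nearer the TRAJ segments than TRAV14D-3-DV8 (1076 kb). It was 23 for TRAV14D-1 (31 rearrangements), 22 for TRAV14D-2 (17), 22.5 for TRAV14D-3-DV8 (12) and 26 for TRAV14N-3 (21). It was 33 for TRAV14-1 (13), 37 for TRAV14-2 (19) and 49.5 for TRAV14-3 (14). Among the 3 D copies the medians lay within 1 TRAJ number of each other, and the larger steps came from TRAV14N-3 onward. TRAJ numbers above 30 were used in 25.8%, 0%, 8.33%, 28.6%, 76.9%, 89.5% and 92.9% of the rearrangements of these copies in the same order. Single rearrangements crossed the pattern, such as a TRAV14D-1 chain joined to TRAJ56 and a TRAV14-3 chain joined to TRAJ23.

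**Figure D3:**
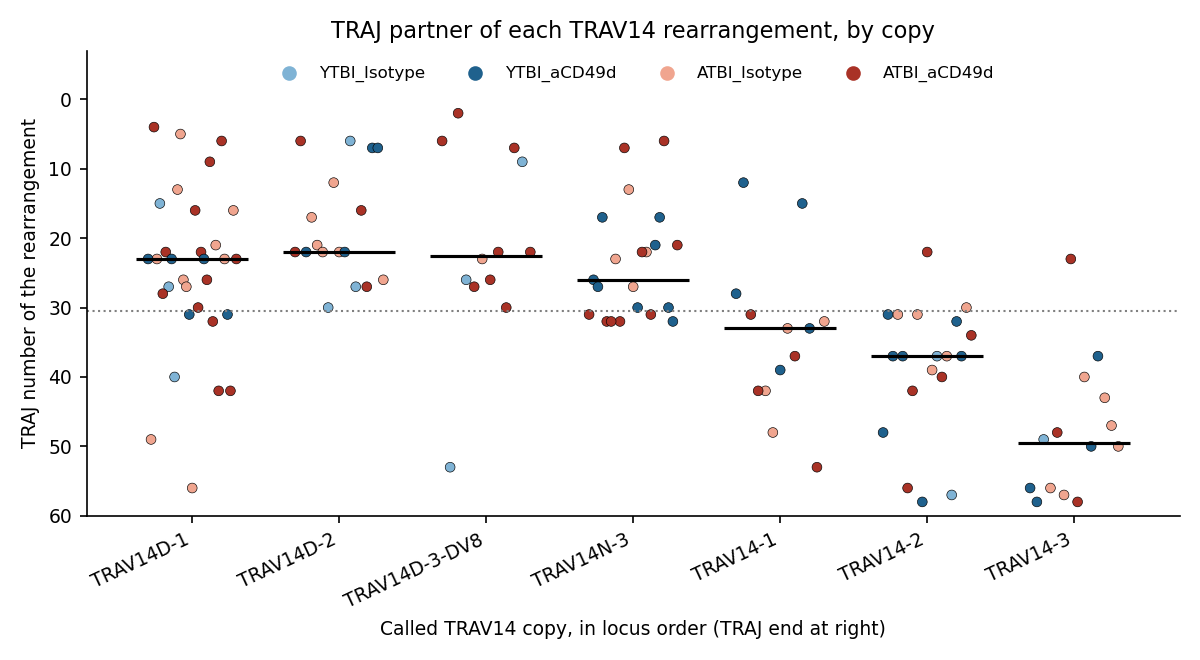
TRAJ number (y axis, with low numbers, far from the TRAV segments, at the top) of each of the 127 distinct TRAV14 rearrangements, by called copy in locus order (x axis), coloured by library. Each point is 1 rearrangement, the horizontal spread within a copy carries no meaning, the black bar is the median and the dotted line lies between TRAJ30 and TRAJ31. The median goes from 23 for TRAV14D-1 to 49.5 for TRAV14-3. Calls of TRAV14D-1 and TRAV14D-2 also cover TRAV14N-1 and TRAV14N-2 and are drawn at the place of the D copies.

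The split by letter was present in TRAV12 and TRAV9 too. In TRAV12, 60.6% of 71 rearrangements with no letter used a TRAJ above 30, against 19.1% of 94 with a D, a difference of 41.4 points (25.9 to 55.0). In TRAV9 the shares were 54.7% of 64 and 26.3% of 57, a difference of 28.4 points (9.78 to 44.9). In TRAV7 they were 47.6% of 82 and 41.3% of 92, a difference of 6.26 points (-9.23 to 21.5). The interval of the TRAV14 difference lay above those of TRAV9 and TRAV7 and overlapped that of TRAV12 at its lower end. With the limit at TRAJ40 the differences were 29.5 points in TRAV12 (17.1 to 42.1), 19.2 in TRAV9 (3.77 to 33.5) and 3.90 in TRAV7 (-7.15 to 15.2), and the TRAV14 interval then overlapped those of TRAV12 and TRAV9. The limit of TRAJ40 for the split was added after seeing the data, and the differences between families were not themselves tested.

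Among single segments, TRAJ22 was the most frequent partner of TRAV14, with 12 of 127 rearrangements (9.45%, 4.98 to 15.9) against 6.69% of other rearrangements. TRAJ23 followed with 9, TRAJ31 with 8, and TRAJ27, TRAJ32 and TRAJ37 with 7 each. TRAJ22 was in 0, 2, 3 and 7 TRAV14 rearrangements of YTBI_Isotype, YTBI_aCD49d, ATBI_Isotype and ATBI_aCD49d. The differences of these 6 segments from the other families were 1.55 to 2.76 points, and the interval of each held 0 over the 4 libraries together. Of the 43 TRAJ names compared in this way, TRAJ18 was the 1 whose interval left out 0, and with 43 names compared 1 such interval is not a test. TRAJ18 is the segment of the invariant NKT receptor, in which it is joined to TRAV11. It was in 0 of the 127 TRAV14 rearrangements, which allows a share of up to 2.36%, and in 41 of the 1241 others (3.30%), 21 of them with TRAV11, a difference of -3.30 points (-4.46 to -0.30). Without TRAV11, a comparison added after seeing the data, TRAJ18 was in 20 of 1217 other rearrangements (1.64%), below that limit, and the interval of the difference held 0 (-2.53 to 1.29). In each single library the interval for TRAJ18 held 0. TRAV11 was in 117 clonotypes over the 4 libraries together, and identical alpha chains of separate clonotypes in 1 library counted once here. The TRAJ18 share by clonotype was not computed. TRAJ6 in ATBI_aCD49d, at 8.70% of TRAV14 and 1.95% of other rearrangements, was the 1 segment whose interval left out 0 within a library, with a difference of 6.75 points (0.21 to 18.9). TRAJ56, with 4 rearrangements, was in 27 cells and TRAJ6, with 5, was in 19, because each was used by the largest TRAV14 clone of an aged library.

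Every TRAV14 copy contributes the same 13 germline bases to the start of CDR3, tgtgcagcaagtg, shown because trimming is read against this stretch. In 50 of the 127 rearrangements (39.4%) all 13 were kept, and on average 11.1 ± 2.16 bases (SD over rearrangements) matched the germline V end. Between the V and J matches lay 2.53 ± 1.94 bases that matched neither germline end, against 2.72 ± 2.11 in the rearrangements of other families. Such bases were absent in 21 of the 127 TRAV14 rearrangements (16.5%) and in 15.6% of the others. The TRAV14 mean was 2.92 in YTBI_Isotype and 2.64 in YTBI_aCD49d, and 2.19 in ATBI_Isotype and 2.61 in ATBI_aCD49d, with SDs of 1.60 to 2.39. A base that was added but happens to equal the germline base is not counted.

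CDR3 was 40.1 ± 3.81 bases long in TRAV14 rearrangements (SD, 127 rearrangements) and 40.9 ± 4.17 bases in the 1241 others. The library means were 39.8 ± 4.07 in YTBI_Isotype and 40.5 ± 3.36 in YTBI_aCD49d, and 38.8 ± 3.86 in ATBI_Isotype and 40.8 ± 3.87 in ATBI_aCD49d. Differences between these means were not tested. The most common length was 42 bases in both, with 40.9% of TRAV14 and 31.3% of other rearrangements.

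A CDR3 of 45 or more bases was found in 13 of 127 TRAV14 rearrangements (10.2%, 5.56 to 16.9) and in 312 of 1241 others (25.1%, 22.8 to 27.6), a difference of -14.9 points (-20.2 to -7.85). The limit of 45 bases was chosen after the distribution was seen. The TRAV14 share was below that of the other families pooled in each library, at 16.7% against 26.7% in YTBI_Isotype and 15.2% against 25.2% in YTBI_aCD49d, and 2.78% against 24.9% in ATBI_Isotype and 10.9% against 24.6% in ATBI_aCD49d. The interval of the difference left out 0 in both aged libraries and held it in both young ones. TRAV7, with 15.5% of 174 rearrangements, also lay below the pool of all families but TRAV14, by a difference of -9.62 points (-15.3 to -2.93). That pool includes TRAV7 itself, and the interval takes the shares as coming from separate sets, so it is only a rough guide. TRAV7 was below TRAV14 in YTBI_Isotype, at 14.3%, and in ATBI_aCD49d, at 10%, and above it in YTBI_aCD49d, at 18.9%, and in ATBI_Isotype, at 18.6%. The other comparison families were TRAV9 with 19.0% of 121 rearrangements and TRAV12 with 29.1% of 165.

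**Figure D4:**
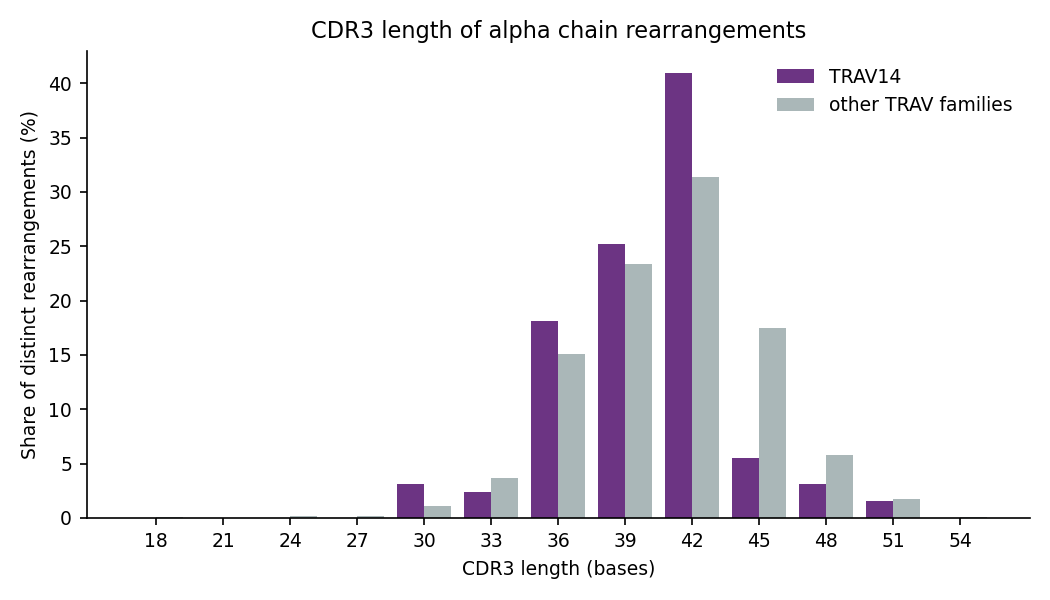
CDR3 length in bases (x axis) of distinct alpha chain rearrangements, as the share of rearrangements in % (y axis), for TRAV14 (127 rearrangements) and all other TRAV families (1241 rearrangements), 4 libraries together. At 42 bases TRAV14 has 40.9% against 31.3%, and at 45 bases 5.51% against 17.5%.

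Beta partners were counted over clonotypes with both chains, of which 125 had TRAV14 and 1208 did not. They are ranked by called name, and a joint call counts as its own name. The most frequent partners of TRAV14 were TRBV3 in 13 clonotypes (10.4%, 5.66 to 17.1), chains called jointly as TRBV12-2 and TRBV13-2 in 12 (9.60%, 5.06 to 16.2), TRBV5 in 11 (8.80%, 4.47 to 15.2), TRBV13-1 in 10 (8.0%, 3.90 to 14.2), and TRBV15 and TRBV16 in 9 each (7.2%, 3.35 to 13.2). In the other clonotypes these segments held 7.28%, 13.2%, 6.13%, 7.70%, 2.48% and 5.71%. No segment dominated, and the TRAV14 receptors spread over 21 of the 22 TRBV names called in the 4 libraries. This order is pooled and differed by library. TRBV5 came first in YTBI_Isotype with 4 clonotypes, and TRBV3 and TRBV13-1 in YTBI_aCD49d with 4 each. The joint call came first in ATBI_Isotype with 6 and TRBV15 in ATBI_aCD49d with 7. Among clonotypes with 1 alpha and 1 beta chain, the joint call held 9.80%, TRBV5 8.82% and TRBV3 7.84%.

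Over the 4 libraries together TRBV15 was the 1 partner of the 22 whose difference from the other clonotypes had an interval that left out 0, at 4.72 points (0.72 to 10.8). Of its 9 TRAV14 clonotypes, 7 were in ATBI_aCD49d, where the share was 15.6% (6.49 to 29.5) against 2.93% of other clonotypes, a difference of 12.6 points (3.31 to 26.6), with 0, 1 and 1 in YTBI_Isotype, YTBI_aCD49d and ATBI_Isotype. With 22 names compared, 1 such interval is not a test. TRBV5 was the partner of 4 of 11 TRAV14 clonotypes in YTBI_Isotype and 1 of 33 in YTBI_aCD49d, and 4 of 36 in ATBI_Isotype and 2 of 45 in ATBI_aCD49d. In YTBI_Isotype this was 36.4% against 4.65% of other clonotypes, a difference of 31.7 points (5.91 to 64.7), the 1 other interval within a library that left out 0. Vβ5 chains, the partner in the OT-I and OT-II receptors, were called outright in 10 TRAV14 clonotypes, 6 as TRBV12-1 and 4 as TRBV12-2, or 8.0% against 8.28% of the other clonotypes.

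A clonotype with 2 or more cells in its library was called clonal. Of the TRAV14 clonotypes, 1 of 12 was clonal in YTBI_Isotype and 1 of 33 in YTBI_aCD49d, and 10 of 36 in ATBI_Isotype and 7 of 46 in ATBI_aCD49d. The clonotypes with other alpha chains were clonal at 8.29% in YTBI_Isotype and 10.8% in YTBI_aCD49d, and 22.8% in ATBI_Isotype and 17.1% in ATBI_aCD49d. Within each treatment the aged minus young difference for TRAV14 clonotypes had an interval that held 0, at 19.4 points under isotype (-13.6 to 38.6) and 12.2 points under aCD49d Ab treatment (-3.33 to 26.1). With the treatments pooled, the aged libraries had 20.7% clonal TRAV14 clonotypes and the young ones 4.44%, a difference of 16.3 points (2.82 to 27.4). The aged libraries also held more cells, and a clone is more likely to be seen again where more cells were sequenced.

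Of the TRAV14 cells, 4 of 15 were clonal in YTBI_Isotype (26.7%, 7.79 to 55.1) and 4 of 36 in YTBI_aCD49d (11.1%, 3.11 to 26.1), and 47 of 73 in ATBI_Isotype (64.4%, 52.3 to 75.3) and 37 of 76 in ATBI_aCD49d (48.7%, 37.0 to 60.4). The clonal cells of each young library were a single clone of 4 cells. Isotype minus aCD49d was 15.7 points in the aged libraries (-1.15 to 31.6) and 15.6 points in the young ones (-8.53 to 45.1). These shares count only cells in which the TRAV14 chain was found. That was 73 of the 104 cells of TRAV14 clonotypes in ATBI_Isotype and 76 of 78 in ATBI_aCD49d. The cells left out were all in clonal clonotypes. Counting them would raise the clonal share in both aged libraries, more so in ATBI_Isotype, and was not done here. Aged minus young was 37.7 points under isotype (6.83 to 59.5) and 37.6 points under aCD49d Ab treatment (18.6 to 51.8). At the 262 cells of the smallest library the expected share was 51.3% in ATBI_Isotype and 35.9% in ATBI_aCD49d, and YTBI_Isotype, the library of that size, had the 26.7% given above. Without the largest TRAV14 clonotype of each library the share was 46.9% in ATBI_Isotype, 35% in ATBI_aCD49d and 0% in both young libraries.

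Cells with other alpha chains were clonal at 17.8% in YTBI_Isotype and 26.7% in YTBI_aCD49d, and 61.7% in ATBI_Isotype and 59.6% in ATBI_aCD49d. TRAV14 minus other was 8.84 points (-11.0 to 37.7), -15.6 points (-24.8 to -0.045), 2.67 points (-10.0 to 14.2) and -10.9 points (-23.0 to 1.32) in this order, and the interval left out 0 only in YTBI_aCD49d. By clonotype, which does not weigh a clone by its size, 19 of 127 TRAV14 clonotypes (15%, 9.25 to 22.4) and 15.5% of the other 1250 were clonal, a difference of -0.56 points (-6.65 to 7.11). In ATBI_aCD49d a TRAV14 clonotype of 2 cells and one of 1 cell had the same alpha and beta CDR3 bases and differed in the called TRBV, so that they may be 1 clone. With clonotypes of the same CDR3 bases merged, an alternative chosen after seeing the data, 38 of 76 TRAV14 cells there were clonal and the clonal TRAV14 clonotypes were 7 of 45.

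**Figure D5:**
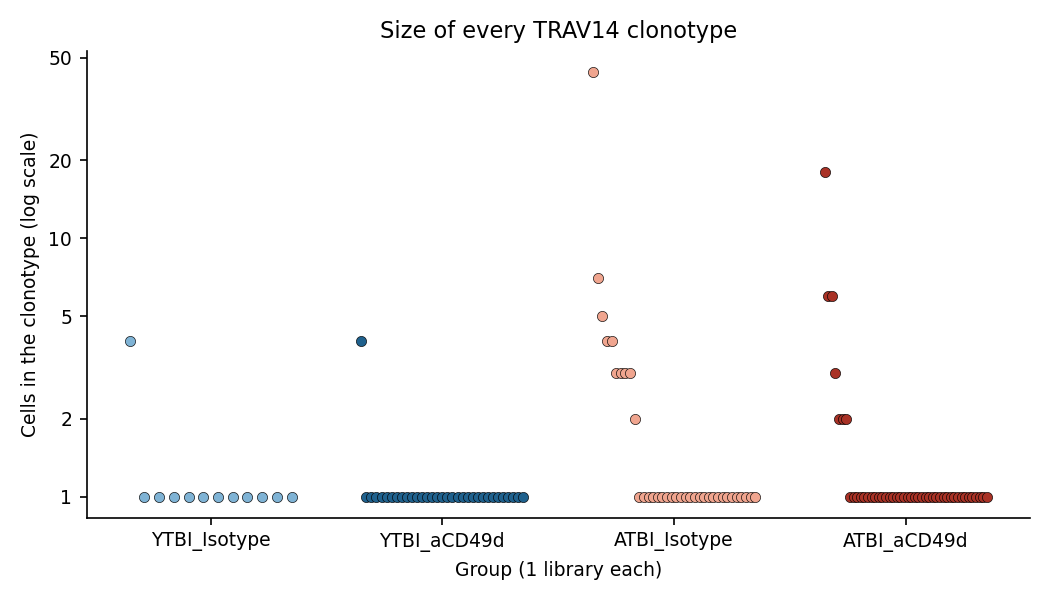
Number of cells (log scale) in each of the 127 TRAV14 clonotypes, by library. Each point is 1 clonotype and the horizontal order within a library is by size. The young libraries hold 1 clone of 4 cells each above the clonotypes of 1 cell, and the aged libraries reach 44 cells in ATBI_Isotype and 18 cells in ATBI_aCD49d.

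The alpha CDR3 of the largest TRAV14 clones is shown from the first to the last base, to identify each clone, with capitals at the bases that match neither the germline V end nor the germline J. The named clones are those of at least 10 cells and the largest 3 of each library with 2 or more cells.
YTBI_Isotype, 4 cells, TRAV14D-3-DV8 and TRAJ26: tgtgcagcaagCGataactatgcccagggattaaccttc
YTBI_aCD49d, 4 cells, TRAV14-3 and TRAJ37: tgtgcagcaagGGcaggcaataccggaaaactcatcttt
ATBI_Isotype, 44 cells, TRAV14D-1 and TRAJ56: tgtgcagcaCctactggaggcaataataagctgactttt
ATBI_Isotype, 7 cells, TRAV14-1 and TRAJ33: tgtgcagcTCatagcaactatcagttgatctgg
ATBI_Isotype, 5 cells, TRAV14-3 and TRAJ43: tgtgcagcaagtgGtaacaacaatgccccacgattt
ATBI_aCD49d, 18 cells, TRAV14D-1 and TRAJ6: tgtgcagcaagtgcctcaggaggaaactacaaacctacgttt
ATBI_aCD49d, 6 cells, TRAV14D-1 and TRAJ32: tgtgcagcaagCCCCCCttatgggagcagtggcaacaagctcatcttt
ATBI_aCD49d, 6 cells, TRAV14-2 and TRAJ34: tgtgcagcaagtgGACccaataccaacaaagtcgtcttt
No named clone had the alpha CDR3 of another. The 18-cell clone had 0 bases outside the germline ends, and the 6-cell clone with TRAJ32 had 6.

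The largest TRAV14 clone, in ATBI_Isotype, held 44 cells, which is 4.30% of the cells of that library (3.14 to 5.73) and made it the 5th largest clone there. Its beta chain was TRBV1 joined to TRBJ1-5 and was found in all 44 cells. The alpha chain was found in 24 of them, with a median of 2 UMIs (unique molecular identifiers, which count captured RNA molecules) and a range of 1 to 7. The other 20 cells entered the clonotype through the beta chain alone. Its beta CDR3 is printed to identify the clone by its other chain.
ATBI_Isotype, 44 cells, TRBV1 and TRBJ1-5: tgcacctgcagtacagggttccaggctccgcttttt

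The largest TRAV14 clone in ATBI_aCD49d held 18 cells (1.60% of the library, 0.95 to 2.52). Its TRBV12-1 and TRBJ1-1 beta chain was found in all 18, the TRAV14D-1 chain in 16 and a second alpha chain of TRAV11 and TRAJ17 in 11, with both alpha chains together in 9 cells. TRAV11 is the V segment of the invariant receptor of NKT cells, which joins it to TRAJ18 and not to TRAJ17. The TRAV14 chain had a median of 5.5 UMIs and the TRAV11 chain a median of 4.
ATBI_aCD49d, 18 cells, TRBV12-1 and TRBJ1-1: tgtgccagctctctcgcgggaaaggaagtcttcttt

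The smaller named clones used other beta chains. The 7-cell clone in ATBI_Isotype had a joint TRBV12-2 and TRBV13-2 call with TRBJ2-3, and the 5-cell clone TRBV16 with TRBJ2-7. The 6-cell clones in ATBI_aCD49d had TRBV1 and TRBV12-2, both with TRBJ2-3. The young clones had TRBV5 with TRBJ2-1 in YTBI_Isotype and TRBV3 with TRBJ1-3 in YTBI_aCD49d, and both carried a second alpha chain, TRAV6-5 in 3 of the 4 cells and TRAV6-7-DV9 in 2 of the 4 cells.

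A second alpha chain of another family was found in 30 TRAV14 cells of 19 clonotypes, and 1 further cell held a pair of TRAV14 chains. Counted per chain, 32 of 201 TRAV14 contigs (15.9%, 11.2 to 21.7) and 210 of 2218 other alpha contigs (9.47%, 8.28 to 10.8) lay in a cell with another alpha chain. Without the largest TRAV14 clonotype of each library the shares were 11.8% (7.12 to 17.9) and 8.90% (7.74 to 10.2). In the 30 cells the TRAV14 chain had more UMIs than the other chain in 16, fewer in 9 and as many in 5. A second chain of TRAV11 with TRAJ18 or of TRAV1 with TRAJ33, the invariant receptors of NKT and MAIT cells, was found in 0 of the 200 TRAV14 cells, which allows a share of up to 1.5%.

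Recovery of the alpha chain differed between the libraries. Over all cells an alpha chain was found in 82.8% in YTBI_Isotype and 78.3% in YTBI_aCD49d, and in 67.6% in ATBI_Isotype and 83.4% in ATBI_aCD49d. In the cells of TRAV14 clonotypes it was found in 73 of 104 cells in ATBI_Isotype (70.2%, 60.4 to 78.8). It was found in every such cell of YTBI_Isotype (15), YTBI_aCD49d (36) and ATBI_aCD49d (78). These counts are partly fixed by selection, because a clonotype of 1 cell counts as TRAV14 only if its alpha chain was found. Such clonotypes made up 11 of the 15 cells in YTBI_Isotype and 32 of 36 in YTBI_aCD49d. In the aged libraries they made up 26 of 104 cells in ATBI_Isotype and 39 of 78 in ATBI_aCD49d. TRAV14 contigs had a median of 6 UMIs in YTBI_Isotype and 3 in YTBI_aCD49d, and 3 in ATBI_Isotype and 5 in ATBI_aCD49d, and 24.7% of those in ATBI_Isotype rested on a single UMI. The libraries held 4473, 7483, 10419 and 18415 UMIs of TCR chains in the same order. With every cell of a TRAV14 clonotype credited to TRAV14, whether or not its alpha chain was found, the difference between the aged libraries in share of cells was 3.97 points.

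Few TRAV14 junctions were met more than once. The 127 rearrangements held 125 distinct CDR3 base sequences, of which 1 occurred in more than 1 library. It was joined to TRAJ22 in a single cell of ATBI_Isotype, on TRAV14N-3, and in a single cell of ATBI_aCD49d, on TRAV14D-1, and had 0 bases outside the germline ends. Because its V copies differ, these are separate rearrangements with the same CDR3. A further sequence occurred on a pair of copies within YTBI_aCD49d, TRAV14-2 and TRAV14N-3, both with TRAJ32.
TRAJ22, found in ATBI_Isotype and ATBI_aCD49d: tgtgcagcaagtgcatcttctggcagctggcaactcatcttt
TRAJ32, found on a pair of copies in YTBI_aCD49d: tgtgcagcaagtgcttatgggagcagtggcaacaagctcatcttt

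At the level of the encoded amino acids, 5 TRAV14 CDR3 sequences occurred in more than 1 library, each in 2 rearrangements. Besides the TRAJ22 sequence above, 4 of them were encoded by bases that differed at 1 position, in capitals below. They are shown for the base at which each pair differs.
TRAJ48, YTBI_aCD49d, TRAV14-2: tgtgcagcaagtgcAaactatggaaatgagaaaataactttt
TRAJ48, ATBI_aCD49d, TRAV14-3: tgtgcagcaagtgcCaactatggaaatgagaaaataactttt
TRAJ16, ATBI_Isotype, TRAV14D-1: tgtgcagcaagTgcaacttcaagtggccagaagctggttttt
TRAJ16, ATBI_aCD49d, TRAV14D-2: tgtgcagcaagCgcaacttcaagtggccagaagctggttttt
TRAJ22, YTBI_aCD49d, TRAV14D-2: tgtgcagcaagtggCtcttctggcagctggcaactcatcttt
TRAJ22, ATBI_aCD49d, TRAV14D-1: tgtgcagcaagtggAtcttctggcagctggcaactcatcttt
TRAJ27, YTBI_Isotype, TRAV14D-1: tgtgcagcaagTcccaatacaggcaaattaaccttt
TRAJ27, ATBI_aCD49d, TRAV14D-3-DV8: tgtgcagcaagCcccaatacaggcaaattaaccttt
All 10 clonotypes with a CDR3 shared between libraries in this way were of 1 cell, and ATBI_aCD49d, the library with most rearrangements, was one of the libraries in all 5.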

How the data were processed

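Single-cell TCR sequencing was analysed in 4 libraries, 1 per group. The authors loaded about 5000 cells per library, and their TCR reads were aligned to mm10; the submitters' processing notes name Cell Ranger 7.2.0. The deposited contig tables give counts of UMIs and reads per chain. The deposited clonotype tables give the cells of each clonotype, both as counts and as the fraction they make up of their library, and these counts equalled the barcodes listed for each clonotype. All deposited contigs were full length and productive. The authors' later step of keeping T cells by their transcriptome was not repeated, and the transcriptome libraries were not analysed here.

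TRAV14 chains were taken by V gene name. Shares of cells and clonotypes were taken over those with an alpha chain. No doublet caller was run, and the 47 of 2986 cells that held over 2 alpha chains, or over 1 beta chain (3 of the 200 TRAV14 cells) were kept and left out in an alternative. A total of 1 barcode was found in 2 libraries, in no TRAV14 cell. V regions were compared with GRCm38.p6, using GENCODE vM21 genes. In each CDR3, the longest start found in the last 40 bases of the called V and the longest end found in the called J were taken as germline. Tables were handled in Python 3.11.15 with pandas 2.3.3 and scipy 1.17.1.

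With 1 library per group no test was made. Where a count was 0, the limit given is 3 counts of the total. Share, interval and thinning calculations were tested on simulated data with known answers. Named were every copy, the 5 TRAJ and 5 TRBV segments with most TRAV14 rearrangements or clonotypes (ties kept) and any with at least 10 in 1 library, clones of at least 10 cells or the largest 3 per library, and CDR3 sequences in more than 1 library. Members, lists and limits were chosen with earlier results of these data known. Segments, sequences and clones named outside this rule (TRAJ6, TRAJ18, TRAJ56, TRBV12-1, TRBV12-2, TRBV13-2, and CDR3 shared within a library or by amino acids only) were chosen after their values were seen. Alternatives covered denominators, a minimum of 2 UMIs, multi-chain cells, chain completeness, clone definition and the largest clone.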

Additional observations from a re-analysis of the deposited data

Results flagged for a closer look

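The difference with treatment in the share of cells with TRAV14 had opposite signs at the 2 ages. ATBI_Isotype minus ATBI_aCD49d was 2.44 percentage points, and YTBI_Isotype minus YTBI_aCD49d was -1.05 percentage points, which came to -0.078 points with at least 2 UMIs per contig. With 1 library per group, no test of the gap between the ages could be made, and the counting interval of each value held 0.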

How the results depend on the processing

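The shares of cells and clonotypes with TRAV14, the differences between libraries in share of cells, the clonal share of TRAV14 cells, the TRAJ share and its split by letter, the TRAJ18 difference, the mean CDR3 length, the named beta partners and the most used copy were recomputed under the alternatives that apply to each. Of the recomputed values, 126 stayed within the counting interval of the reported value (for the mean CDR3 length, within its 95% interval) and 12 did not. The TRAV14 share of cells in ATBI_Isotype was 7.33% without the largest TRAV14 clonotype of each library and 7.13% over all cells with a clonotype. Its counterparts in the other libraries stayed within their intervals. The clonal share of TRAV14 cells without those clonotypes was 0.0% in YTBI_Isotype and 0.0% in YTBI_aCD49d, and 46.9% in ATBI_Isotype and 35% in ATBI_aCD49d. Expected at the 262 cells of the smallest library, an alternative chosen after seeing the data, it was 51.3% in ATBI_Isotype and 35.9% in ATBI_aCD49d. The share of TRAV14 rearrangements in the TRAV-near TRAJ segments was 19.7% when the limit was TRAJ40. With that limit, added for the split after seeing the data, copies with no letter minus D and N copies was 37.3 points over the 4 libraries and 37.1 points in ATBI_Isotype, and with at least 2 UMIs and the limit at TRAJ30 it was 66.5 points over the 4 libraries. The most used copy held 41.0% of cells by its called name, and copies numbered 1 held 52.0% together. Over the alternatives, ATBI_Isotype minus ATBI_aCD49d ran from 0.36 to 3.97 points, the upper end with every cell of a TRAV14 clonotype credited, also chosen after seeing the data. YTBI_Isotype minus YTBI_aCD49d ran from -1.98 to -0.078 points, the latter with at least 2 UMIs per contig. ATBI_Isotype minus YTBI_Isotype, reported as 3.64 points, ran from 1.40 to 4.83 points. Its lower end was over all cells with a clonotype, and its upper end was with every cell of a TRAV14 clonotype credited. ATBI_aCD49d minus YTBI_aCD49d ran from -0.61 to 0.60 points and so had no steady sign. No paired analysis was possible because the 4 groups have a single library apiece.

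YTBI_Isotype had 15 TRAV14 cells. In ATBI_Isotype 18 of 73 TRAV14 contigs had a single UMI.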
